A study of Drosophila melanogaster with 2 samples.

Results

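The regions described here are the binding regions of Hr39-eGFP that lay inside introns, between 1 and 10 kb from the nearest transcription start site (TSS). They were chosen by position: the summit, the base of highest signal in a region, had to lie on an autosome, over 1000 bp and at most 10000 bp from the nearest TSS of any annotated gene, inside a gene and in no exon. Of the 7426 regions on the 6 chromosome arms in the authors' optimal set, 5925 were autosomal and 1596 met the rule, 26.9% of the autosomal regions (95% Wilson interval 25.8 to 28.1%). Among as many of the highest-signal regions of each replicate, 1599 (27.1%) met it in replicate 1 and 1510 (25.3%) in replicate 3, a mean of 26.2% ± 1.30 (SD, n = 2). The data come from chromatin immunoprecipitation and sequencing (ChIP-seq) on whole Drosophila melanogaster at the white prepupa stage, males and females pooled. All animals were of the strain Hr39-RC-GFP, a stable line whose Hr39 carries GFP at its C terminus. Precipitation used an antibody against GFP; another label field names Hr39 as the antibody, the protein that the tag marks. There is 1 group with 2 biological replicates, numbered 1 and 3, both of the same donor strain. No animals without the fusion and no second condition were analysed here, and whole animals hold many cell types, so a region cannot be given to a tissue. Peak lists hold no read counts, so sequencing depth is unknown. Regions are not replicates of a condition, and 2 samples of 1 group allow no test, so the comparisons below are descriptions: intervals count regions only, and the replicate values stand beside them.

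Hr39 is an orphan nuclear receptor of the NR5 family, which it shares with Ftz-F1 in flies. Receptors of this family bind DNA as monomers, at a nuclear receptor site AGGTCA that is extended on its 5′ side, as in AAGGTCA or TCAAGGTCA. White prepupae mark the start of metamorphosis, after a pulse of the steroid hormone ecdysone, and Hr39 is known for its role in the glands of the female reproductive tract. In flies, introns of genes that act in development often hold enhancers, the first intron in particular.

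The 6 members with the highest signal among those whose sequence can be printed are shown because they carry the strongest intronic occupancy of the data and let the base composition at a summit be seen. Each line gives the host gene, the position on dm6 and the plus strand over the summit and 50 bases to each side; capitals mark the longest unbroken run of A and T. Sequences are from the RefSeq genome, whose coordinates are those of dm6.
ush, chr2L:481008-481108: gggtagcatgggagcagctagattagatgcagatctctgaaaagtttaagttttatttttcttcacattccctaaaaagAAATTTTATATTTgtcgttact
CG32486, chr3L:3060748-3060848: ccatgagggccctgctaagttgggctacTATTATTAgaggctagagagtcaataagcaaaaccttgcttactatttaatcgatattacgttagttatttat
CG11050, chr2L:6612661-6612761: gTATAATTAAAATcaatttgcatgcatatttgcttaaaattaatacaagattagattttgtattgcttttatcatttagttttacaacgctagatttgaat
CG32264, chr3L:3785171-3785271: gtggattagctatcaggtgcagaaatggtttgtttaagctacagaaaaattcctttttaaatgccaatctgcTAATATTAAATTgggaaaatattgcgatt
Eip78C, chr3L:21253852-21253952: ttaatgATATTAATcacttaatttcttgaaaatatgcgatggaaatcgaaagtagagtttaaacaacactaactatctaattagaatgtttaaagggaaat
pum, chr3R:9229221-9229321: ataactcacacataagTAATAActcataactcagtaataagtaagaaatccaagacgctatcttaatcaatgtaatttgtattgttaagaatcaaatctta
The GC content of these 6 windows ran from 21.8% at CG11050 to 36.6% at CG32486, and the longest A and T run from 6 bases at pum to 13 at ush. Runs of such length are common in introns. The median longest run was 10 bases over all members and 8 in windows over all intron that members could occupy, with an upper quartile of 11 there. None of the 6 held AGGTCA on either strand.

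A second set shows every member in which the same window held CAAGGTCA, the extended NR5 element, on either strand. There were 6 such members, chosen after their sequences were seen; capitals mark the element, which reads in reverse where it lies on the minus strand.
ush, chr2L:516187-516287: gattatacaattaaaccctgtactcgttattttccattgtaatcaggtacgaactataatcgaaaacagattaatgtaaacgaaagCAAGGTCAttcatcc
ImpE1, chr3L:8385196-8385296: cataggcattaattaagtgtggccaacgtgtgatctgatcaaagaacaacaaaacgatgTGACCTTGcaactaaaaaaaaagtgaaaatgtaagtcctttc
Hr39, chr2L:21244213-21244313: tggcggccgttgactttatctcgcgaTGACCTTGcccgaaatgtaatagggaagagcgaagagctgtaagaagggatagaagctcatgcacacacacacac
ush, chr2L:488390-488490: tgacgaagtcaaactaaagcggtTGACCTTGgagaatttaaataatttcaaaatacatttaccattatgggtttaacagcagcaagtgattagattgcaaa
SKIP, chr3R:22184192-22184292: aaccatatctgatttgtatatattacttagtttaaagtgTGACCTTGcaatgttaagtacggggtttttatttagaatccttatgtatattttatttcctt
Eip74EF, chr3L:17613858-17613958: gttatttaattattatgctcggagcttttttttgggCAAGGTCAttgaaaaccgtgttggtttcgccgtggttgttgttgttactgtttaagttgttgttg
Of the 6, 2 lay in ush and 1 each in Hr39 itself, ImpE1 and Eip74EF, both named for their induction by ecdysone, and SKIP. Their ranks by signal in the optimal set, where 1 is the highest, ran from 1245 to 6755, outside the top 10% of the set for each of the 6. At ush the stronger one was at 1340 in replicate 1 and 1157 in replicate 3. The member in Hr39 ranked 1755 in replicate 3 and had no candidate of replicate 1 within 100 bp, and that in Eip74EF ranked 9658 in replicate 1 and 4190 in replicate 3. The element was 8 to 39 bases from the summit. In all, 0.376% of members held CAAGGTCA, against 0.313% of windows centred 500 bp to each side and 0.214% of 227231 windows of the same length laid end to end over eligible introns. The counts were 4 in replicate 1 and 6 in replicate 3.

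Intronic members formed the second largest class of autosomal regions. They compare with 2836 regions within 1000 bp of a TSS, 885 between genes at 1 to 10 kb, 536 over 10 kb from any TSS and 72 in exons, while 1501 regions lay on X. By arm, 343 members were on 2L, 341 on 2R, 436 on 3L and 476 on 3R. These are 5.99 to 6.88 per 100 kb of eligible intron, meaning the bases that a summit of this class could occupy. Chromosome 4 held 0 members in 418 kb of eligible intron, which allows up to 0.717 per 100 kb at a limit of 3 counts, for counting error alone; its 26 optimal regions were 22 at promoters, 3 between genes and 1 in an exon. The lower limit of distance cuts a falling slope. Intronic summits numbered 9.42 per 100 kb just inside it, at 1000 to 1250 bp, and 9.92 just outside, at 750 to 1000 bp. At the upper limit there were 4.74 per 100 kb just inside, at 9 to 10 kb, and 5.94 just outside, at 10 to 11 kb.

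First introns held the members at about 2.12 times the density of later introns. An intron was called first or later when it had that place in every transcript of the host gene that spans the summit as intron, and mixed otherwise. First introns held 713 members, 8.69 per 100 kb (exact Poisson 95% interval 8.06 to 9.35), and later introns 522, 4.095 per 100 kb (3.75 to 4.46). Mixed introns, first in one transcript and later in another, held 361, or 9.01 per 100 kb (8.10 to 9.99). In replicate 1 the densities were 8.77 in first and 4.07 in later introns, and in replicate 3 they were 8.48 and 3.79. The ratio was 2.15 in replicate 1 and 2.24 in replicate 3, or 2.20 ± 0.0590 (SD, n = 2), so the difference between intron classes was much wider than the spread between replicates. Read in the transcript of longest span alone, the ratio was 1.77.

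Density also fell with intron number. Numbered in the host's longest transcript over the summit, intron 1 held 8.83 members per 100 kb, intron 2 6.11, intron 3 5.81, intron 4 4.65 and introns from 5 on 2.67. In replicate 1 the same series ran 8.93, 6.27, 5.64, 4.35 and 2.51, and in replicate 3 it ran 8.53, 5.71, 5.48, 4.59 and 2.22. Both replicates kept the order, although the intervals of introns 2 and 3 overlapped almost wholly.

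The contrast between first and later introns was present within each distance bin. At 1 to 1.5 kb, first introns held 10.8 members per 100 kb and later introns 4.80; at 5 to 7.5 kb the values were 9.06 and 4.01; at 7.5 to 10 kb, 6.17 and 3.68. Over the 7 bins the ratio ran from 1.68 to 2.28 in the optimal set, 1.59 to 2.61 in replicate 1 and 1.67 to 2.45 in replicate 3. Over all introns the density was 8.78 per 100 kb at 1 to 1.5 kb and 4.72 at 7.5 to 10 kb. The fall lay mostly in first and mixed introns, while later introns stayed between 3.68 and 5.10 in every bin of the optimal set.

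**Figure D1:**
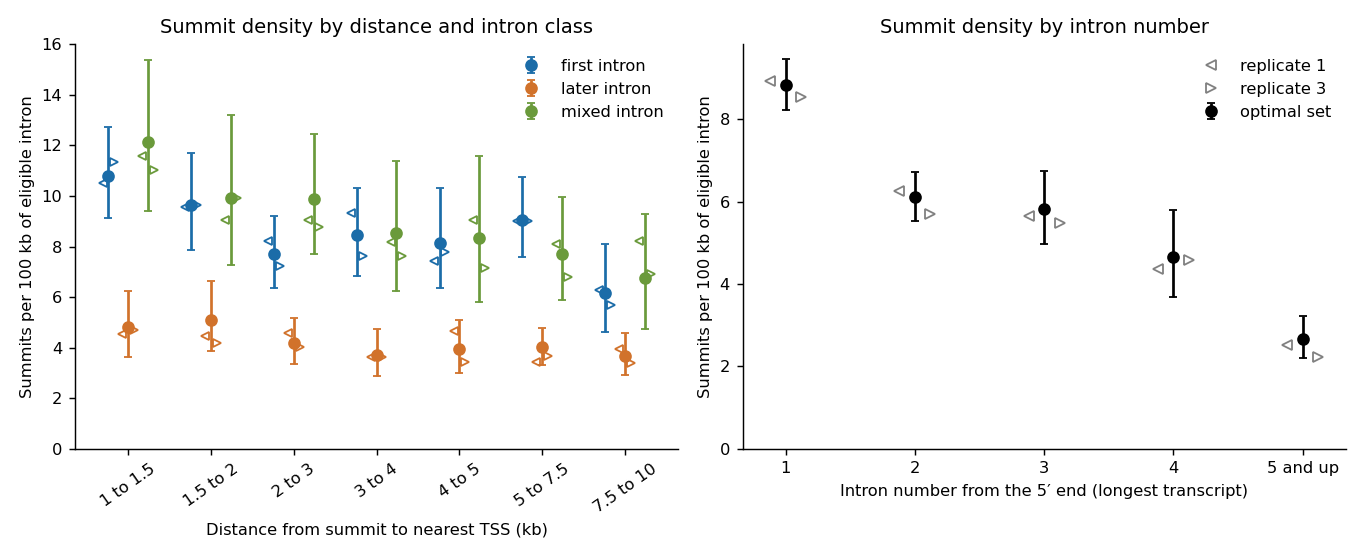
Left, summits per 100 kb of eligible intron against distance to the nearest TSS in kb for first, later and mixed introns; right, the same density against intron number. Filled points are the optimal set with exact Poisson 95% intervals and open triangles are the 2 replicates. First introns stand above later introns in every distance bin, 10.8 against 4.80 at 1 to 1.5 kb, and density falls to 2.67 at introns from 5 on.

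Intron length changed the size of the contrast. By length class, chosen like the intron numbers after values were seen, first means intron 1 of the longest transcript and later any other. In introns of up to 5 kb, first introns held 7.79 members per 100 kb and later introns 2.85, a ratio of 2.73. The ratio was 1.55 at 5 to 10 kb, 1.35 at 10 to 20 kb and 1.69 at 20 to 50 kb, where first introns held 10.2 per 100 kb and later introns 6.05, so it did not fall steadily with length. In introns over 50 kb the ratio was 0.928, with 24 members in first and 93 in later introns, and it was 0.899 in replicate 1 and 0.830 in replicate 3. Later introns of over 5 kb thus held between 5.67 and 6.22 per 100 kb, about the density over all eligible intron, which was 6.39. The low value was that of later introns of up to 5 kb, which made up 5.36 Mb of eligible sequence.

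Genes that have both kinds of intron showed a contrast of similar size. Of 1895 protein-coding genes with eligible bases in both first and later introns, 272 had members in first introns and not in later ones, 125 in later and not in first, and 60 in both. First introns of these genes held 8.92 members per 100 kb and later introns 4.02, a ratio of 2.22, with 2.23 in replicate 1 and 2.30 in replicate 3.

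Members in first introns ranked somewhat higher by signal. Their median rank was 3641 of 7426, against 4282.5 in later introns and 3787 in mixed ones. In replicate 1 the medians were 3613 in first and 4322 in later introns, and in replicate 3 they were 3650 and 4118. The difference in median rank, first minus later, was -8.64% of the list over all members but -2.09% within the upper 50% of the optimal set. The spread within a class was far wider than this shift: the middle 50% of ranks ran from 1930 to 5615 in first introns and from 2367.5 to 6130.5 in later ones. By signal, 65 members in first introns (9.12%) and 30 in later introns (5.75%) were in the top 10% of the optimal set. All members together had a median rank of 3913.5 and 7.21% in the top 10%, against a median of 3233.5 and 13.8% at promoters and 4080 and 6.33% between genes.

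Most members had a candidate region in both replicates, which the choice of the optimal set largely fixes: it was kept for agreement between these replicates, and the candidate lists matched here are long and include weak regions. A candidate summit lay within 100 bp in replicate 1 for 1541 members (96.6%), in replicate 3 for 1567 (98.2%) and in both for 1513, or 94.8% (Wilson interval 93.6 to 95.8%), where 93% of all autosomal optimal regions had one in both. The share is close to that background, so replicate support does not mark out the intronic regions. By the same candidate lists, the share found in both was 90.9% at promoters and 95.3% between genes. Only 1 member had no candidate in either replicate. Against only the 7426 highest-signal regions of each replicate, 79.1% of members were found in both. Across the 1513 members found in both, the rank correlation between replicates was 0.878 (Spearman, a description across regions that were kept for agreement between these replicates and share the control alignment), and 83.5% had ranks within 1.5 times of each other. Replicate 1 gave the higher rank for 827 members and replicate 3 for 686.

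**Figure D2:**
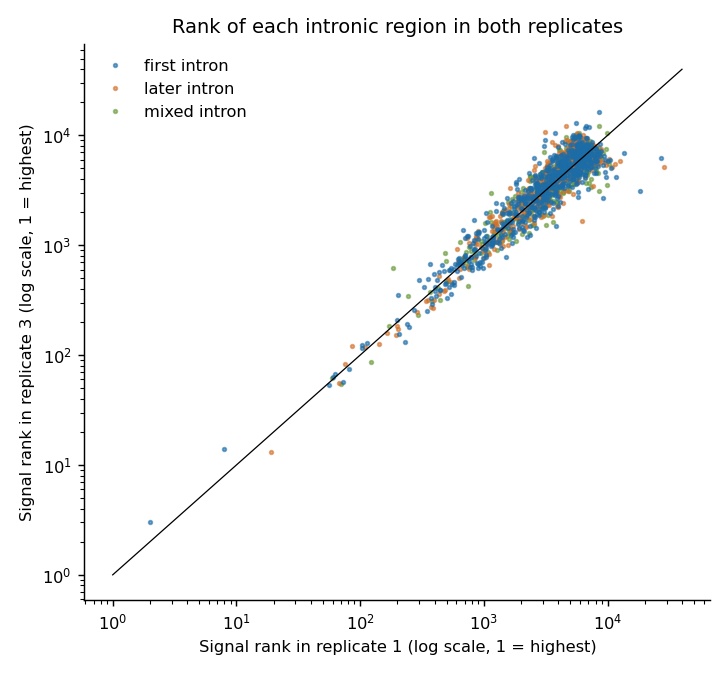
Rank by signal in replicate 1 against rank in replicate 3, both on log scales with 1 as the highest, for the 1513 members found in both replicates, coloured by intron class. Points follow the line of equal ranks, with first, later and mixed introns intermingled.

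The strongest member was second in the optimal set (rank 2), with rank 2 in replicate 1 and 3 in replicate 3. It lay in the first intron of ush, which encodes U-shaped, a zinc finger partner of GATA factors, at chr2L:480843-481327, 1370 bp from the TSS of cbt. CG32486 (chr3L:3060582-3061024) followed at rank 11, with 8 in replicate 1 and 14 in replicate 3, and CG11050 (chr2L:6612480-6612926) at 15, with 19 and 13. The intron of CG11050 was only 140 bp long, shorter than the region, and the summit lay 1024 bp from the TSS, close to the lower limit. After these 3 members the ranks stepped to 55 at CG12769 (chr2R:8060802-8061222), so the 3 stood well above the others. Eip78C, an ecdysone-induced nuclear receptor, ranked 60 at chr3L:21253681-21254101 in a 22192 bp intron, with 70 in replicate 1 and 55 in replicate 3. The rest of the 15 strongest lay in CG32264 (rank 59), pum (62, a translational repressor), wit (64, a type II receptor for bone morphogenetic proteins), crb (68, an apical polarity protein), Su(Tpl) (69, a transcription elongation factor), for (75, a cGMP-dependent protein kinase), Trl (78, the GAGA factor), eff (96, a ubiquitin-conjugating enzyme), upSET (103, a chromatin protein) and CG9837 (111). The summit in Su(Tpl) also lay inside Mi-2, a chromatin remodeller. For all 15 the ranks stayed at or under 123 in replicate 1 and 122 in replicate 3. By intron, 8 of the 15 were in first, 4 in later and 3 in mixed introns. These small counts are close to the shares over all members, 44.7% in first, 32.7% in later and 22.6% in mixed introns.

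The host was often, but not always, the gene of the nearest TSS. The nearest TSS belonged to the host for 1087 members (68.1%), to another protein-coding gene for 258 and to a non-coding gene for 251. The share was 78.4% (75.2 to 81.3%) in first introns, against 48.5% (44.2 to 52.7%) in later ones. A first intron follows the host's own first exon, so the intron class largely sets this contrast. The same share over eligible bases was not counted, so the contrast says nothing of binding. ush is a host whose strongest member lay nearest the TSS of another gene, cbt. A further 71 members lay inside 2 or more protein-coding genes, and 30 inside none. Median intron length was 11106 bp, and the summit lay a median of 3565 bp from the intron's 5′ end.

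Hosts were a minority of genes. Of 5687 autosomal protein-coding genes with any eligible intron, 734 held at least 1 member, 12.9% of them. Of the 734, 356 held 1 member, 158 held 2 and 220 held 3 or more, and 74 held at least 5. The share grew with the amount of eligible intron: 0.526% of genes with up to 1 kb of eligible intron held a member, 12.8% with 1 to 5 kb, 47.8% with 10 to 20 kb and 76.9% with over 50 kb. Per 100 kb the density was far more even, between 5.04 and 7.66 in all groups over 1 kb and 2.48 under it.

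Hosts had a region at one of their own promoters more often than other genes did. A summit within 1000 bp of a TSS was present at 388 hosts (52.9%), against 1372 of 4953 eligible genes without a member (27.7%). The contrast was present at each amount of eligible intron: 54.0% of hosts against 24.3% of the other genes with 10 to 20 kb, and 50.3% against 23.8% with 20 to 50 kb. Members also stood near other regions, with a median of 1951.5 bp to the nearest optimal summit of any class, and 28.3% had one within 1000 bp. The same share was 26.2% for promoter regions and 28.6% for intergenic ones.

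The most members, 13 each, lay in Ptp61F (a tyrosine phosphatase that restrains JAK/STAT signalling), shn (Schnurri, a zinc finger protein of the Dpp pathway) and tara (Taranis, of the trithorax group). In Ptp61F the members spread over 109.81 kb, 2 of them with the overlapping gene ru as host, and the strongest ranked 163, with 164 in replicate 1 and 160 in replicate 3. The 13 members of shn lay within 28.7 kb and included 5 in first, 4 in later and 4 in mixed introns, at a strongest rank of 171. tara had all 13 in first introns, 48.4 per 100 kb of its eligible intron, with no region at its promoter; 12 of the 13 were found in replicate 1 and 13 in replicate 3.

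Next came fz2 (a Wnt receptor), psq (Pipsqueak, a chromatin-binding BTB protein) and ush with 10 each. None of the 10 in fz2 lay in a first intron. CG32264, E2f1 (a cell cycle transcription factor) and Eip75B (an ecdysone-induced nuclear receptor) had 9 each. With 8 each there were RapGAP1 and cv-c (GTPase-activating proteins), siz (an exchange factor of Arf GTPases), heca, pyd (a junction protein of the ZO family), tkv (the type I Dpp receptor), tna, CG33158 and vri (a leucine zipper factor of the circadian clock). The 8 counted in CG33158 include 3 whose host was aos, which overlaps it. vri had the highest density of these 18 genes, 66.6 per 100 kb, and siz, tna and vri had all of theirs in first introns. Of the 18, 11 also had a promoter region. In every one of the 18, at least 6 members were found in both replicates.

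**Figure D3:**
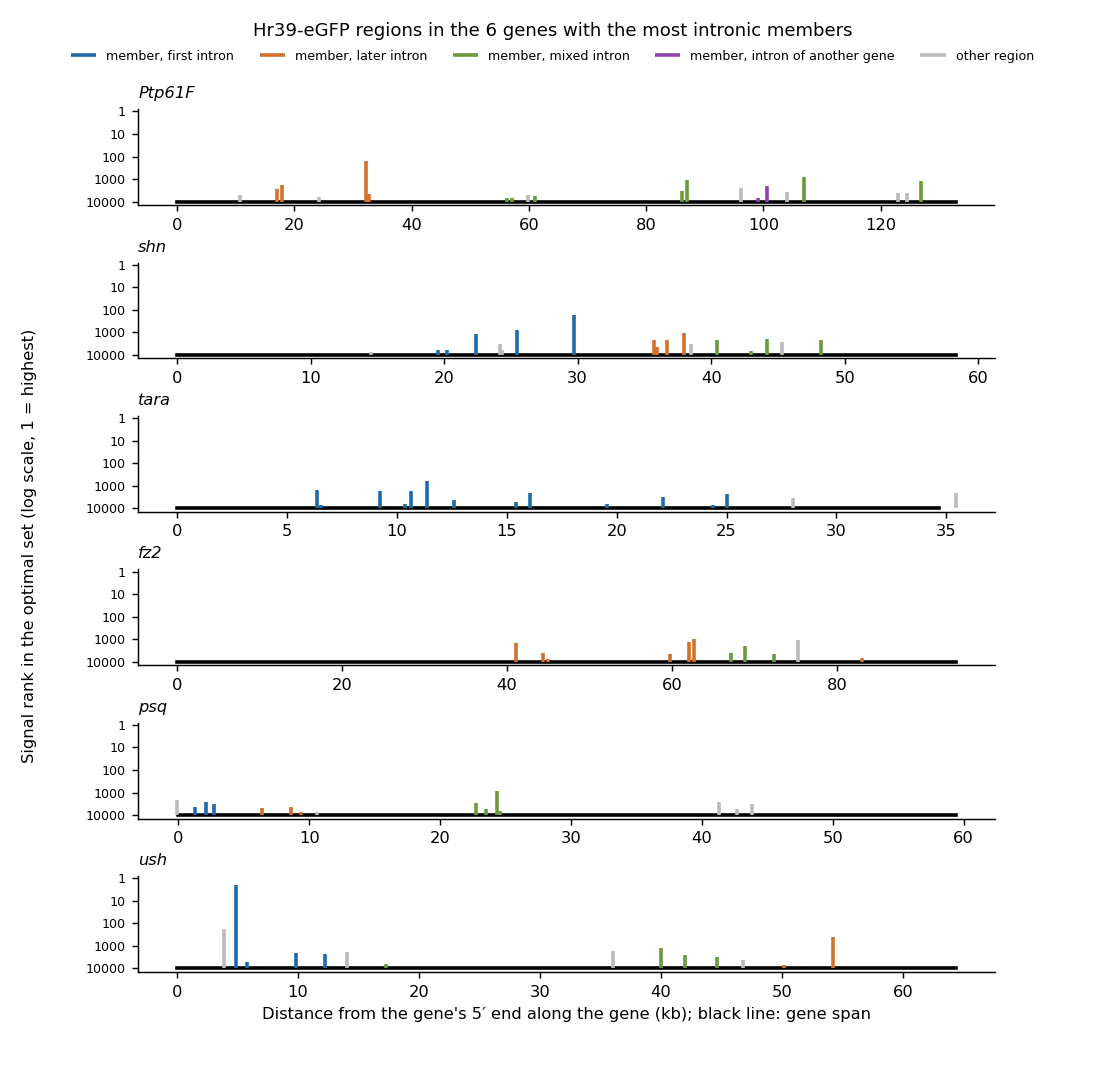
Regions of the optimal set along the 6 genes with 10 or more members, as distance in kb from the gene's 5′ end, with height showing rank on a log scale (taller is stronger) and colour showing intron class; grey marks regions that are not members. In tara the members lie between 6.35 and 25.02 kb, in ush between 4.84 and 17.2 kb and again between 40.02 and 54.2 kb, and in Ptp61F between 17.03 and 126.8 kb with long gaps.

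Genes of signalling pathways and chromatin regulation had members more densely than intron at large. Of 17 gene lists, 14 had a share of genes with a member above the 12.9% of all eligible genes. The lists were chosen with earlier results of these data known, so their order is a description only. Lists differ in the amount of intron they hold, so density is given beside the share, and all are set against 6.39 per 100 kb over all eligible intron (6.41 in replicate 1 and 6.05 in replicate 3).

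Of the 28 chromatin regulators with eligible intron, 9 (32.1%) held a member, with 44 members at 24.95 per 100 kb (18.1 to 33.5), and 24.95 in replicate 1 and 27.8 in replicate 3. The strongest were Mi-2, whose 4 members all had Su(Tpl) as host, Trl and trx (Trithorax, a histone methyltransferase; rank 223). brm, the ATPase of the Brahma complex, had none in 0.133 kb. A few genes carried the list: tara supplied 13 of the 44, psq 10 and sbb 6. Without tara alone the density was 20.7 per 100 kb.

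In the JNK and JAK/STAT list, 7 of 10 genes held members, at 22.6 per 100 kb, with 21.9 in replicate 1 and 19.8 in replicate 3. After Ptp61F the strongest were msn (Misshapen, a kinase upstream of JNK; rank 551) and ken (a BTB zinc finger repressor; 704), while egr, the TNF ligand, had none in 0.484 kb. EGFR and Ras signalling had 11 of 18 genes with members and 20.4 per 100 kb. At its head stood aop (the repressor Yan), whose strongest member was at rank 339, with 185 in replicate 1 and 618 in replicate 3. Egfr itself had 5 members, all in first introns (strongest rank 927), and aos (Argos, a secreted inhibitor of the pathway) had 3. grk, a ligand, had none in 0.238 kb.

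Dpp and activin signalling had members in 8 of 16 genes, at 18.9 per 100 kb. The receptors wit and tkv had strongest ranks of 64 and 264, shn 171, and sax, another type I receptor, had none in 0.329 kb. Wingless and Wnt signalling had 8 of 17 genes and 17.2 per 100 kb. Its leading genes were the receptors or co-receptors fz (rank 326), arr (799) and fz2 (1006), each with its members in later or mixed introns. The other 5 genes with members had theirs mostly in first introns. These were the ligand genes Wnt2 with 4 and Wnt4 with 2, nkd with 4 and Notum with 2, all in first introns, and dlp with 5 of 6. The ligand genes wg and Wnt6 had none in 5.74 and 8.39 kb. Hippo signalling had 6 of 14 genes and 17.8 per 100 kb. It was led by ex (an upstream activator, rank 193), wts (the kinase Warts, 1091) and Tgi (a repressive cofactor of Scalloped, 1438). hpo had none, with only 0.057 kb of eligible intron.

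Notch signalling stood closer to the background, with 7 of 15 genes and 8.33 per 100 kb (4.76 to 13.5), and 5.84 without mam. neur (a ubiquitin ligase acting on Notch ligands) had the strongest member at rank 205, with 249 in replicate 1 and 179 in replicate 3. It was followed by mam (a coactivator of Notch) with 7 members and bib with 2, and the ligand gene Delta had none in 9.79 kb. Cell adhesion, polarity and actin genes had 9 of 16 with members and 13.3 per 100 kb, with crb, tsr (cofilin, rank 792) and ena (an actin regulator, 1691) leading. shg, which encodes E-cadherin, had none in 1.14 kb. In the insulin and TOR list there were 6 of 16 genes and 12.03 per 100 kb. Its strongest members were in sima (a hypoxia-inducible factor, rank 552), InR (the insulin receptor, 1746) and S6k (2445), and chico had none in 0.516 kb.

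Genes of the ecdysone response held members in 9 of 11 cases, the highest share of the 17 lists (81.8%, Wilson interval 52.3 to 94.9%). They also had the most room, with the largest median eligible intron of the lists, 23.9 kb per gene. Of all eligible genes with 20 to 50 kb, 57.4% held a member. The density of the list was 13.7 per 100 kb, with 11.5 in replicate 1 and 15.6 in replicate 3. That was below the chromatin, JNK and JAK/STAT, EGFR, Dpp, Hippo and Wingless lists. Eip78C had 5 members, all in mixed introns, Eip75B 9 and Eip74EF, an ETS factor, 6 with a strongest rank of 768. Eip93F had none in 26.6 kb. Among the 14 nuclear receptors with eligible intron, 9 held members, at 12.5 per 100 kb. EcR, the ecdysone receptor, had 5, all in later introns and the strongest at rank 1237, with 1402 in replicate 1 and 1115 in replicate 3; Hnf4 had none in 8.01 kb. Eip75B, EcR, Eip78C, Hr3, ftz-f1 and Hr39 are in both lists and supply most of the members of the second, so the lists are nearly the same evidence. The 5 members counted in Hr3 all had an overlapping gene as host, not Hr3 itself.

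Hr39 held 1 member, in a 14989 bp intron, the second of the gene, at chr2L:21244118-21244310 and 5924 bp from the nearest TSS, that of a non-coding annotation. Its rank was 2102, with 1755 in replicate 3, and replicate 1 had no candidate within 100 bp. The stronger optimal region of the gene, at rank 147, lay 10175 bp from any TSS and so just outside the distance limit; it ranked 410 in replicate 1 and 78 in replicate 3.

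Synapse and ion channel genes held few members for their amount of intron. Of 25 synapse and ion channel genes with eligible intron, 2 (8%) held members, and over 376 kb the density was 1.60 per 100 kb (0.586 to 3.47), with 1.86 in replicate 1 and 1.33 in replicate 3. Ca-beta, a calcium channel subunit, had 5 of the 6 members and Dscam1, a neuronal adhesion receptor, had 1; without Ca-beta the density was 0.288. Shal, a potassium channel, had none in 12.4 kb, and 6 genes of the list with at least 20 kb of eligible intron had none, among them Shab, Nlg2 and nAChRalpha4. Muscle genes had 5 of 16 with members and 4.77 per 100 kb (2.38 to 8.54), an interval that holds the 6.39 of all eligible intron; the value was 5.64 in replicate 1 and 2.60 in replicate 3. Mef2 (rank 2052), Zasp52 (3105) and how (4451) led that list, and sls had none in 11.8 kb. Homeotic and patterning genes had 7 of 23 and 5.76 per 100 kb. The 7 members counted in Antp have CG46458, an overlapping gene, as host. hth had 5 members and Dll 1, and pb had none in 12.5 kb.

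The last 3 lists hold little intron. Lipid and sugar metabolism had 4 of 27 genes with members, 7.47 per 100 kb over 67.0 kb and 4.99 without bmm, below that of all eligible intron. The strongest members were in bmm (a triglyceride lipase, rank 1077), Lpin (2584) and mdy (3652), and SREBP had none in 0.06 kb. Cell death and autophagy had 2 of 16, Atg1 with 3 members (1 of them with CG42709 as host) and Diap1 with 1, and hid had none in 11.1 kb; the density was 9.48 per 100 kb, and 3.25 without Atg1. Diap1 is a case of unequal support, at rank 18418 in replicate 1 and 3139 in replicate 3. Cuticle genes, Cpr47Ea among them, had none in 6 genes with 7.08 kb of eligible intron in all.

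**Figure D4:**
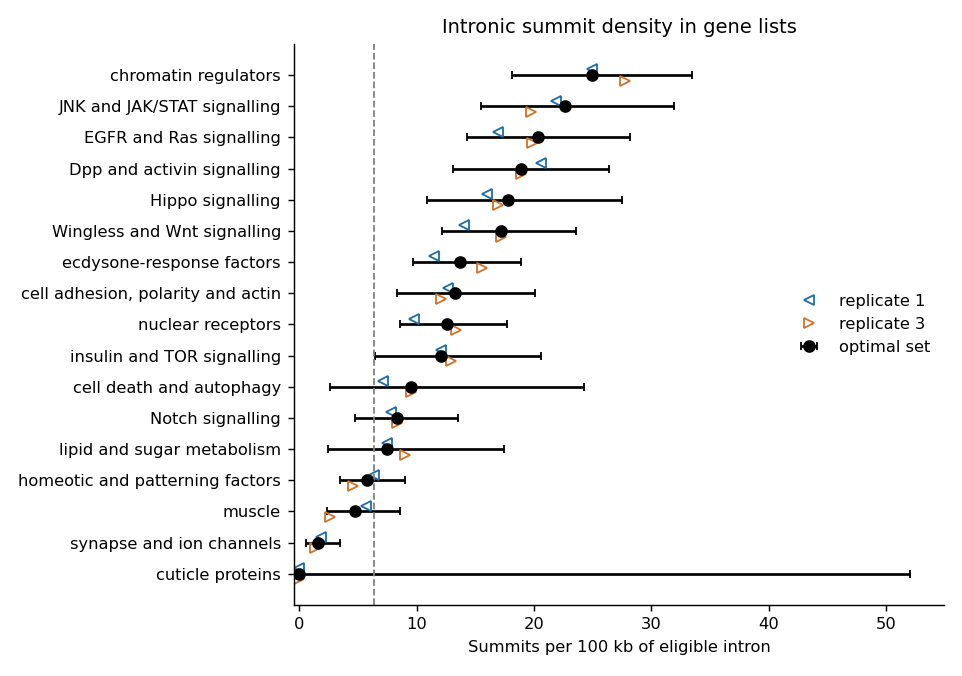
Summits per 100 kb of eligible intron for each of the 17 gene lists. Filled points are the optimal set with exact Poisson 95% intervals, open triangles are the 2 replicates, and the dashed line is the 6.39 per 100 kb over all eligible intron. Chromatin regulators stand highest at 24.95, and synapse and ion channel genes stand at 1.60, below the line in both replicates.

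Summits in introns lay in sequence rich in A and T. Within 50 bp of the summit the GC content averaged 32.8% ± 7.53 (SD over 1596 members), against 43.1% ± 6.93 in the flanking windows and 40.1% ± 9.12 over eligible intron, and it was lower at the summit than in the flanks for 84.8% of members. The difference was -9.69 percentage points in replicate 1 and -10.6 in replicate 3. First and later introns gave the same picture, 32.96% and 32.8% at summits, although first introns are slightly richer in GC over their whole eligible length, 40.5% against 39.8%. Composition differed little with signal: in 4 groups of 399 members, from the highest signal to the lowest, GC averaged 31.7% ± 6.73, 32.5% ± 7.42, 33.7% ± 7.71 and 33.4% ± 8.05 (SD over members). Fragment size, GC bias of sequencing and mappability were not measured here, and their part in these values was not tested.

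**Figure D5:**
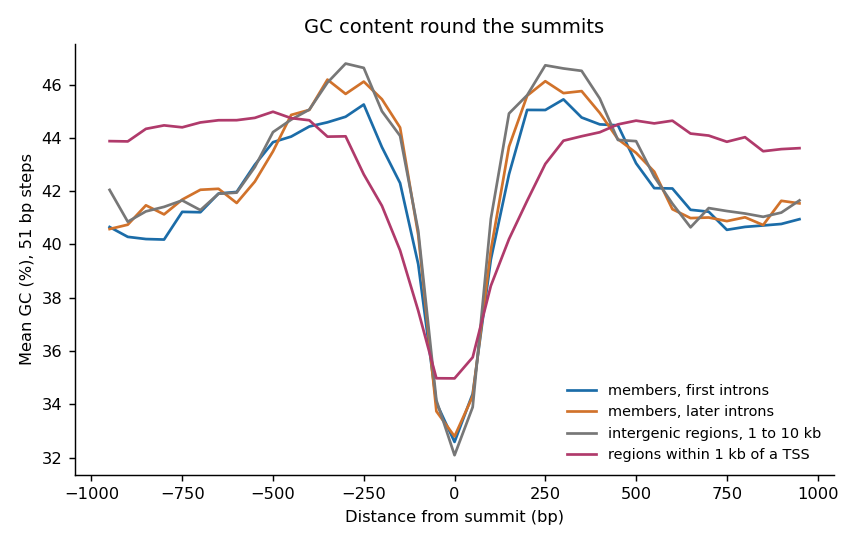
Mean GC content in percent, in steps of 51 bp, against distance from the summit in bp for members in first introns, members in later introns, intergenic regions at 1 to 10 kb and regions within 1 kb of a TSS. All 4 dip at the summit, to 32.6% in first introns, and the intronic and intergenic lines rise above their outer level at about 250 bp to each side.

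Short sequences of A and T alone were more frequent at summits, to unequal degrees. TTTAAAA, searched on both strands like the other motifs, lay in 14.6% of member windows, against 4.76% of flanks and 6.54% of eligible windows, with 14.4% in replicate 1 and 15.2% in replicate 3. TTATAA lay in 9.90%, against 4.95% of flanks and 5.93% of eligible windows. The run AAAAAAA differed less, in 12.5% against 10.1% of flanks and 10.1% of eligible windows. None of this is particular to introns: TTTAAAA lay in 13.0% of windows at intergenic regions and 14.2% at promoter regions. TTATAA lay in 10.1% and 9.56% of them. Some sequences with more G and C were less frequent at summits: GAGAGAG, the GAGA factor repeat, lay in 0.877% against 2.82% of flanks and 1.29% of eligible windows, CACACACA in 1.13% against 3.48% and 2.54%, and the E-box CAGCTG in 2.26% against 4.76% and 3.76%. CAGGTAG, the Zelda element, went the other way with 0.564% (0.297 to 1.07%), against 0.439% and 0.444%, values within its interval. At intergenic and promoter summits GAGAGAG, CACACACA and CAGCTG were likewise less frequent than in the flanks of those summits.

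Nuclear receptor sites were rare and near the level of the surrounding sequence. AGGTCA, which is contained in the longer forms, lay in 37 of 1596 windows, 2.32%, against 2.54% of flanks and 2.47% of eligible windows. AAGGTCA lay in 22 windows, 1.38% against 1.22% and 0.928%, and TCAAGGTCA in 0 of 1596, against 0.157% of flanks and 0.0541% of eligible windows. Among the 399 members of highest signal AAGGTCA lay in 2.51%, against 0.752 to 1.25% in the other 3 groups of 399. A match is only a run of letters, and its absence from these windows says nothing of whether the receptor was there.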

How the data were processed

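Hr39-eGFP ChIP-seq of whole white prepupae was analysed from region lists of 2 replicates, 1 and 3, which form 1 group. The authors deposited a candidate list of 30000 regions per replicate and an optimal set, kept by its irreproducible discovery rate. Per the deposited library notes these lists are on dm6 and were made from the replicates' alignments with 1 control alignment; no label or note used here names the peak caller or aligner. The authors' deposited signal value per region served here to order regions inside 1 list, since its scaling is unknown. The control was not analysed here, nor were the dm3 lists.

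Summits were placed on the Ensembl 115 annotation without transposable elements, and 18 mitochondrial regions were left out. Arm lengths, genes and the RefSeq genome sequence share the files' coordinates. The host was the protein-coding gene containing the summit whose 5′ end was nearest. Eligible bases were counted exactly. In the comparison of replicates, the 7426 highest-signal regions of each were used. Flanks were windows of equal length centred 500 bp to each side. Wilson and exact Poisson intervals are at 95%. Of 406 list symbols, 11 were replaced by the annotation's and 1 matched no gene. A list gene was counted with all members inside its span, nested genes included.

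Names follow a rule: hosts of the 15 strongest members, the hosts with most members, Hr39, and per list the 3 genes with the strongest members and the first without one. The other genes named, the groups of 399 members and the intron numbers were chosen after values were seen. Members, lists and motifs were chosen with earlier results of these data known. Classes and densities were tested on simulated data. Python 3.11.15, numpy 2.4.6, pandas 2.3.3, scipy 1.17.1 and matplotlib 3.10.9 were used. The 13 alternatives were each replicate alone, other distances, TSSs, transcripts, windows, flanks and summit matches, and the stronger part of the optimal set.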

Additional observations from a re-analysis of the deposited data

How the results depend on the processing

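Of 69 alternative values, 44 stayed within the spread of the replicates or the limit set for counts, and 25 moved. Of the ratios and differences, 0 changed direction, while counts and shares have no direction to change. The limit for counts is wide: 1125 members with a lower distance of 2000 bp and 1115 with an upper one of 5000 bp count as staying, against 1596. Intron length was not among the alternatives, and the ratio of first to later introns was 0.928 in introns over 50 kb. With the upper 50% of the optimal set by signal there were 756 members, 25.4% of autosomal regions, the ratio of first to later introns was 2.58, 8.02% of eligible genes were hosts, 98.0% of members were found in both replicates, the shift in median rank was -2.09% of the list and GC was -11.45 percentage points from the flanks. A lower distance of 2000 bp gave 19.0% of regions, a ratio of 2.05 and 15.3% of genes. An upper distance of 5000 bp gave 18.8% of regions and 11.2% of genes. Protein-coding TSSs alone gave 12.5% of genes, and members found in both replicates 12.5%. The longest transcript gave a ratio of 1.77; genes with both kinds of intron, an alternative chosen after seeing the data, gave 2.22. Replicate support was 81.5% at 50 bp, 97.6% at 200 bp and 79.1% against each replicate's highest-signal regions. GC differed by -8.35 points with windows reaching 100 bp to each side and -8.17 with flanks 1000 bp away. Leaving out each replicate in turn gave 25.3 to 27.1% of regions, ratios of 2.15 to 2.24, 12.45 to 12.9% of genes and rank shifts from -9.55 to -6.30% of the list. The cause of these shifts was not tested, except that a narrower distance or shorter list holds fewer regions by construction.

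Leaving out a replicate gave no value of replicate support, since a list would be set against itself, and a lower distance of 2000 bp gave none for the distance ratio. No paired analysis was possible because the 2 replicates belong to 1 group and no test was run. The region lists hold no read counts, so weak regions cannot be told from shallow coverage, and nothing here separates regions that depend on Hr39 from other enriched chromatin. The annotation decides which introns are first, and host genes are named by position, with no measure of their expression.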

Other observations

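Chromosome 4 had 0 members in the optimal set, yet the whole candidate lists, which include weak regions, held 9 intronic regions at 1 to 10 kb on it in replicate 1 and 69 in replicate 3. All candidate regions on chromosome 4 numbered 47 in replicate 1 and 299 in replicate 3, of about equally long lists (29999 and 29972 regions on the 6 arms). No cause of the difference was tested.

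All 2080 sequences of 6 bases, with both strands counted as 1, were compared with the eligible windows after the data were seen. The 36 that hold no G or C were all more frequent at summits, by 1.16 to 2.01 times, with TTTAAA highest, in 22.4% of member windows, against 11.1% of eligible windows. The median of these 36 was 1.46 times, and that of sequences with 1 G or C base was no lower, 1.47 times. With 2 such bases the median was 1.21 times. Of those with 3 G or C bases in at least 20 windows, the median was 0.839 times. ACAGTG went against it at 2.24 times, in 8.02% of member windows, against 4.73% of flanks and 3.59% of eligible windows, with 8.51% in replicate 1 and 7.28% in replicate 3. AGGGTA followed, in 4.26%, against 1.66% of flanks and 2.26% of eligible windows.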
